A study of Mus musculus with 4 samples.

Results

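The genes described here encode 34 subunits of the receptors for GABA and glutamate, the main inhibitory and excitatory transmitters of the brain. They were taken by symbol from the 55573 genes of a deposited RNA-seq count table: 10 GABA-A subunits, 2 GABA-B subunits, 4 AMPA, 5 kainate and 6 NMDA subunits, 1 delta-type subunit and 6 metabotropic glutamate receptors. All 34 symbols were found in the table. Of these genes, 23 had at least 1 read in some library, 17 had more than 3 reads over all libraries, and 12 had enough reads to be tested.

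The libraries came from SmoWT cells, a mouse medulloblastoma culture of the Shh subtype kept as floating neurospheres in Neurobasal medium with B27 supplement. The cells derive from spontaneous tumours of C57BL/6 mice with the genotype Ptch1+/-, Trp53-/-, so both groups carry the Ptch1 and Trp53 alleles, and a cultured tumour cell population stands here without the circuit of the cerebellum. In 2 libraries the cells had been kept for 24 h with the solvent DMSO, and in 2 with GDC0449 at 0.1 µM (vismodegib, which blocks the Hedgehog signal transducer Smoothened). Whether replicates came from separate cultures is not stated in the labels. P-values here measure no more than the spread between these libraries, and that spread may be technical.

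GABA-A receptors are pentameric chloride channels, usually of alpha and beta subunits with a gamma or delta subunit, and GABA-B receptors are G protein-coupled dimers of Gabbr1 and Gabbr2. AMPA, kainate and NMDA receptors are glutamate-gated cation channels, and an NMDA receptor needs the obligatory subunit Grin1. In the cerebellum, the alpha subunit gene Gabra6 and the NMDA subunit gene Grin2c are switched on as granule neurons mature, and the delta subunit joins receptors outside synapses. Shh-type medulloblastoma arises from the progenitors of these neurons.

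The libraries held 16329721 to 20790030 reads in genes. The targeted pathway was checked with Gli1, the transcription factor gene that reports Hedgehog activity. Its level was 281 and 263 CPM (counts scaled by library size and TMM factors) in DMSO, and 38.8 and 32.7 CPM in GDC0449, with a log2 fold change of -2.93 (SE 0.07, adjusted p = 2.58e-34, edgeR's quasi-likelihood test). Several marker genes of granule neurons were called higher, at more than 1.5-fold and an adjusted p under 0.05, where 12.4% of all tested genes were called and 8.62% were higher. Of 8 genes listed for postmitotic granule neurons 5 were called higher, Rbfox3 had a log2 difference of -0.08 (adjusted p = 0.492), and the summed level of the list went from 875 to 940 CPM in DMSO to 1643 to 1724 CPM in GDC0449. Of 7 granule progenitor genes 3 were called higher, Barhl1 was not tested and Pax6 had a log2 difference of -0.19 (adjusted p = 0.0453), with summed levels of 890 to 895 and 1104 to 1194 CPM. The share of these cell stages in any receptor value below was not tested, and in these bulk libraries fewer cells of a type and less RNA per cell cannot be told apart. The other lists were of GABAergic neurons, astrocytes, oligodendrocyte lineage, microglia and endothelium, with 9, 8, 8, 6 and 5 genes. Of these genes 1, 6, 5, 2 and 2 were tested, in that order. In the same order, the lists held 1 (Lhx1, higher), 1 (higher), 0, 1 (lower) and 1 (higher) called genes. Their summed levels in DMSO and GDC0449 were 74.8 to 75.4 and 142 to 146 CPM, 193 to 211 and 289 to 293 CPM, 69.5 to 70.3 and 84.1 to 85.8 CPM, 1.53 to 2.55 and 0.81 to 1.04 CPM, and 0.76 to 1.37 and 0.76 to 1.33 CPM. Of these lists, Gad1, Gad2, Slc32a1, Pax2, Lhx5, Ptf1a and Calb1 of GABAergic neurons, Aqp4 and Aldh1l1 of astrocytes, Olig1 of oligodendrocytes, and Cdh5 and Kdr of endothelium had 0 reads in all 4 libraries. Other genes of the same lists were well above 0 in each library, among them Slc1a2, Slc1a3 and Gja1 of astrocytes (72.6 to 178, 70.2 to 78.5 and 38.5 to 45.9 CPM), Mbp of oligodendrocytes (51.7 to 69.8 CPM) and Lhx1 of GABAergic neurons (74.8 to 146 CPM).

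The promoters of Gria2, Grin2c and Gabbr1, the highest AMPA, NMDA and GABA-B members per kilobase of merged exons, are shown first. None of these 3 genes was called in the comparison below. Each stretch holds the 250 bases before the RefSeq start, 5′ to 3′ on the gene's strand (GRCm38.p6). Capitals mark the matches to 2 of 6 motifs searched on both strands, the E-box CANNTG in Gria2 and the GC box GGGCGG in Grin2c and Gabbr1.
Gria2 (chr3:80802836-80803085, minus strand): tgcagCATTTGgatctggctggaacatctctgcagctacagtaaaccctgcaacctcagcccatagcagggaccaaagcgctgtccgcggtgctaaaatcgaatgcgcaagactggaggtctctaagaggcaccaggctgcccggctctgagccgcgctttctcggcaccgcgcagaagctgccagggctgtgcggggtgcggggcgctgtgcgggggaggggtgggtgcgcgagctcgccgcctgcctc
Grin2c (chr11:115267244-115267493, minus strand): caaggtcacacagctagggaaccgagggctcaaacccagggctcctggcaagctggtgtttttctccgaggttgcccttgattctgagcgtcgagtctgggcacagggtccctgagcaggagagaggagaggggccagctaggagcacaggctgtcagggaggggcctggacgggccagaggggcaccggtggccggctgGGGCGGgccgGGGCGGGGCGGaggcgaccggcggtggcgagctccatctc
Gabbr1 (chr17:37045716-37045965, plus strand): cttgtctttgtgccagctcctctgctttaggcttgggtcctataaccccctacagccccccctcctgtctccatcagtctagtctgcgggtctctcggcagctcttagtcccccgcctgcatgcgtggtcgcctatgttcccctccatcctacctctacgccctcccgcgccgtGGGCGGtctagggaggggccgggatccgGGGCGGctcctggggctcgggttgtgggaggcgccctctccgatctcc
The 3 stretches have a GC content of 64.8%, 68.8% and 66.0%, and none of their bases lies in an annotated exon. RefSeq promoters were matched for 24 of the 34 members, with 31 starts. The GC box was in 15 of these 31 windows, against 32.7% of 32841 promoters in the table. CANNTG was in 10 of 31 (66.2% of all promoters), TATAAA in 3 (12.4%) and the NRF1 motif in 1, of Gabrb1 (3.74%). Neither the GLI motif GACCACCCA (0.225% of all promoters) nor the cyclic AMP element TGACGTCA (1.55%) was found in the members' windows. A match is a run of letters and not a measured site, and the GC box and CANNTG shares are those of short, frequent words.

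A few subunits carried almost all of the receptor signal. Per kilobase of merged exons, the highest member of each tested receptor was Grik5 for kainate, Grin2c for NMDA, Gria2 for AMPA, Gabbr1 for GABA-B and Gabra4 for GABA-A, between 4.99 and 17.0 CPM per kb in every library. Another 11 members had 0 reads in all 4 libraries: the GABA-A genes Gabra3, Gabra5, Gabra6, Gabrb2, Gabrg1 and Gabrg3, the AMPA gene Gria1, the kainate gene Grik3, the NMDA genes Grin2a and Grin2b, and the metabotropic gene Grm5. A count of 0 over 77944561 reads allows a level of up to 0.0385 CPM, for counting error only. The deposited FPKM of these 11 genes was at most 0.00182, in Gabrg3. Gabra2, Gabrd, Grik1 and Grm8 had 2 reads each over the 4 libraries, and Grm3 and Grm7 had 3 each.

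**Figure D1:**
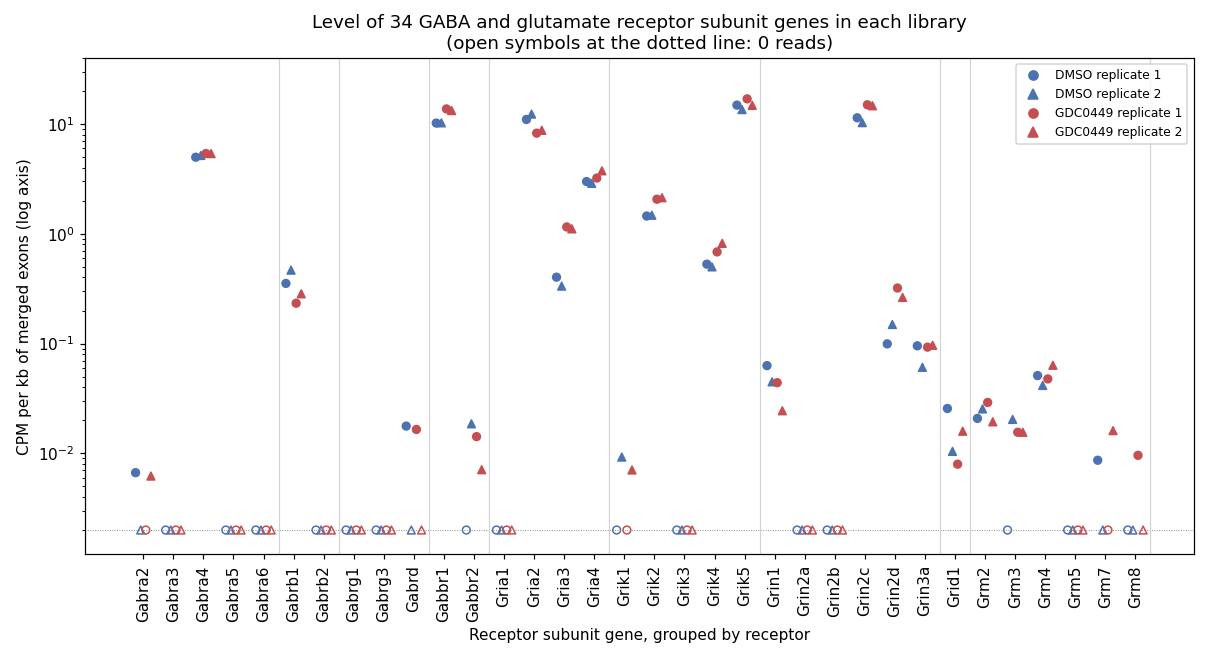
Level of each of the 34 subunit genes (x axis, grouped by receptor) in CPM per kilobase of merged exons (y axis, log scale), with 1 symbol per library and open symbols for 0 reads. Gabra4, Gabbr1, Gria2, Grik5 and Grin2c lie between 4.99 and 17.0 in all libraries, and 11 genes have 0 reads throughout.

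In the comparison of GDC0449 with DMSO, 3 of the 12 tested members were called, with an adjusted p under 0.05 and more than 1.5-fold change: Gria3 and Grin2d rose and Gabrb1 fell. That rule called 12.4% of all 15472 tested genes, 8.62% higher and 3.80% lower. Without the fold threshold 6 members were higher and 2 lower, where 35.9% of all genes passed. The log2 fold change was above 0 for 10 of the 12 tested members and below 0 for 2, with a median of 0.33 against 0.01 over all tested genes. Values of the groups did not overlap in 10 of the 12, and in 65.8% of all tested genes. The 22 members not tested had at most 33 reads over all libraries, and the tested ones at least 84.

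**Figure D2:**
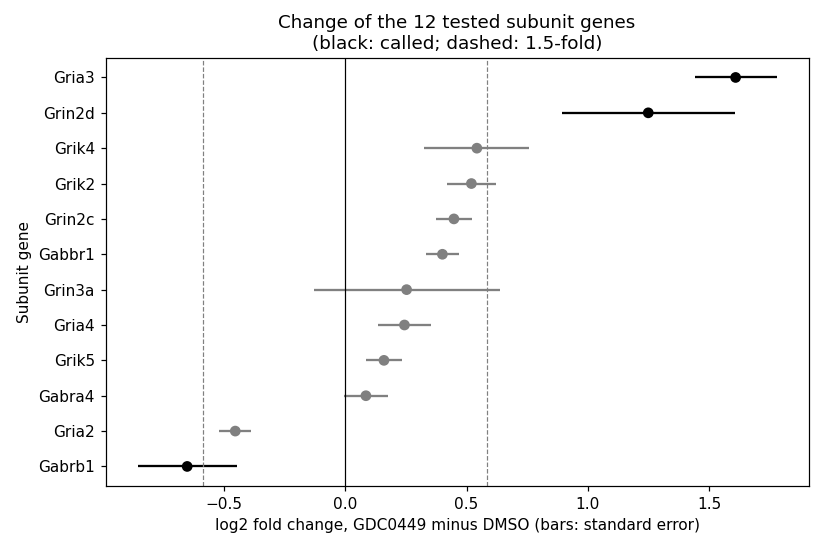
log2 fold change of GDC0449 against DMSO (x axis) for the 12 tested subunit genes (y axis), from edgeR, with bars for the standard error and dashed lines at 1.5-fold. Gria3 at 1.61 and Grin2d at 1.25 were called higher and Gabrb1 at -0.65 was called lower.

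Among AMPA subunits, Gria3 rose, and Gria2, the most abundant, was lower by less than the fold threshold. Gria3 (chrX:41400854-41678601, plus strand, GRCm38; ENSMUSG00000001986) encodes the pore-forming subunit GluA3. It had 78 and 53 reads in DMSO and 240 and 231 in GDC0449, or 3.97 and 3.29 against 11.4 and 10.9 CPM. Both treated libraries lay far above both controls. Means were 3.63 ± 0.480 and 11.2 ± 0.311 CPM (SD, n = 2), a 3.05-fold rise with a log2 fold change of 1.61 (SE 0.17, adjusted p = 3.94e-11, edgeR). Gria3 was called in each alternative tried that tested it, with an adjusted p of 0.0211 and 0.0227 without DMSO replicates 1 and 2, and with a log2 difference of 0.88 (adjusted p = 0.0159) on the deposited FPKM, as log2(FPKM + 1).

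Gria2 (chr3:80681450-80802835, minus strand) encodes GluA2, the subunit that makes AMPA receptors nearly impermeable to calcium, and its promoter is printed above. It had 3367 and 3087 reads in DMSO and 2709 and 2879 in GDC0449, or 171 and 192 against 129 and 136 CPM. The treated libraries were both below the controls. The difference passed the adjusted p (1.93e-07, edgeR) but at a log2 fold change of -0.45 (SE 0.07, 1.37-fold) it did not reach the fold threshold and is not a call. Gria4, which encodes GluA4, stood at 18.9 and 18.2 CPM in DMSO and 20.3 and 23.6 CPM in GDC0449, a log2 difference of 0.24 (SE 0.11, adjusted p = 0.0714).

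Set per kilobase of merged exons, Gria2 made up 76.4% and 79.3% of the summed AMPA subunit level in DMSO, against 65.4% and 64.4% in GDC0449. Gria3 made up 2.8% and 2.1%, then 9.1% and 8.1%. Gria4 made up 20.8% and 18.6%, then 25.5% and 27.5%. For each of the 3 shares the groups did not overlap on this scale. From the deposited FPKM the Gria4 shares did overlap, at 14.1% and 12.3% in DMSO and 13.0% and 19.9% in GDC0449, while those of Gria2 and Gria3 did not. The ratio of Gria2 to Gria3 was 27.4 and 36.9 in DMSO and 7.16 and 7.90 in GDC0449, and that of Gria2 to Gria4 was 3.68 and 4.27, then 2.57 and 2.34. From FPKM, the ratio of Gria2 to Gria3 was 24.7 and 65.1 in DMSO and 6.38 and 6.60 in GDC0449. Gria2 was the most abundant AMPA subunit transcript in all 4 libraries on both scales. No test was run on the shares, since an exact permutation test of 2 against 2 libraries cannot go below 0.333.

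**Figure D3:**
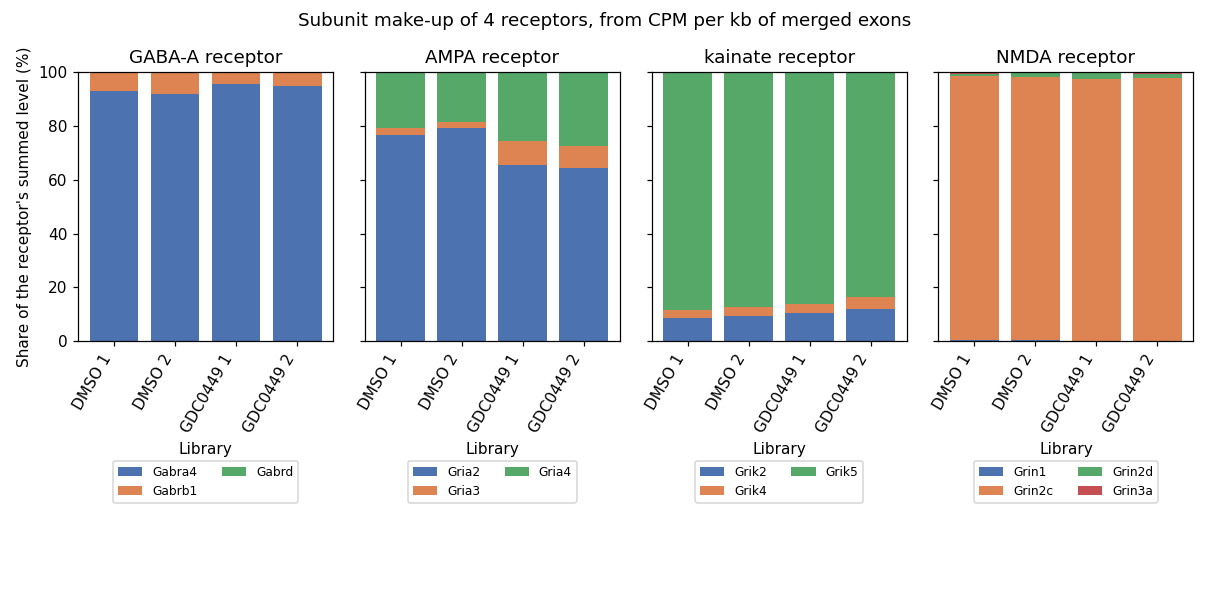
Share of each subunit gene in the summed level of its receptor (y axis, percent of CPM per kilobase of merged exons) in each library (x axis), for GABA-A, AMPA, kainate and NMDA receptors. The Gria2 share is 76.4% and 79.3% in DMSO against 65.4% and 64.4% in GDC0449, and 1 gene makes up most of each of the other receptors.

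Among kainate receptors, the accessory subunit was the most abundant. Grik5 (chr7:25009849-25072346, minus strand) encodes GluK5, which forms working channels only together with another kainate subunit such as GluK2. It had 76.9 and 70.0 CPM in DMSO and 87.7 and 76.6 CPM in GDC0449, from 1128 to 1849 reads. The groups overlapped, and the log2 difference of 0.16 (SE 0.07) missed the threshold with an adjusted p of 0.0903 (edgeR). Grik2, which encodes GluK2, was at 19.2 and 19.6 CPM in DMSO and 27.4 and 28.2 CPM in GDC0449. The difference of 0.52 on the log2 scale (SE 0.10, adjusted p = 3.86e-05) was 1.43-fold and under the fold threshold. Grik4, the other accessory subunit gene, was at 3.16 and 2.98 CPM, then 4.08 and 4.88 CPM (log2 fold change 0.54, SE 0.22, adjusted p = 0.0449). It met both thresholds of a call only without GDC0449 replicate 1 (log2 fold change 0.66). Per kilobase, Grik5 made up 88.2% and 87.2% of the kainate subunit level in DMSO and 86.1% and 83.4% in GDC0449, and Grik2 8.6% and 9.5%, then 10.5% and 12%. Grik1 and Grik3, which like Grik2 encode subunits able to form channels alone, had 2 and 0 reads.

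NMDA receptor transcripts were nearly all of a single regulatory subunit. Grin2c (chr11:115249169-115267243, minus strand; promoter above) encodes GluN2C, the subunit of mature granule neurons. It had 57.5 and 51.9 CPM in DMSO and 75.5 and 74.0 CPM in GDC0449, from 836 to 1591 reads. Both treated libraries lay above both controls. The log2 fold change was 0.45 (SE 0.07, 1.36-fold, adjusted p = 3.40e-06, edgeR), under the fold threshold. Per kilobase, Grin2c made up 97.8% and 97.6% of the NMDA subunit level in DMSO and 97.0% and 97.5% in GDC0449.

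Grin1, which encodes the subunit that every NMDA receptor contains, had 12 and 7 reads in DMSO and 9 and 5 in GDC0449, against 5117 reads of Grin2c over the same libraries. Per kilobase, Grin2c was 181 and 230 times Grin1 in DMSO and 340 and 601 times in GDC0449. These ratios rest on 5 to 12 Grin1 reads a library and depend on the scale: they were 121 and 111, then 194 and 132 from the deposited FPKM, and 82.2 and 104, then 154 and 273 per kilobase of the longest transcript. Of the exonic bases of Grin1, 13.5% are shared with the antisense gene Grin1os, and the deposited FPKM of Grin1 was likewise low, at 0.0523 to 0.0756. Grin2a and Grin2b, the main forebrain regulatory subunit genes, had 0 reads.

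Grin2d (chr7:45831883-45878378, minus strand; ENSMUSG00000002771) encodes GluN2D, a subunit known from early brain development. It had 13 and 16 reads in DMSO and 45 and 37 in GDC0449, or 0.662 and 0.994 against 2.14 and 1.75 CPM. The groups did not overlap, at means of 0.828 ± 0.235 and 1.94 ± 0.270 CPM (SD, n = 2). The fold was 2.38 (log2 fold change 1.25, SE 0.36, adjusted p = 0.00466, edgeR). The call was lost with DESeq2 (adjusted p = 0.118) and without DMSO replicate 1 (0.150), DMSO replicate 2 (0.0774) or GDC0449 replicate 1 (0.0824). On log2(FPKM + 1) Grin2d differed by 0.15 (adjusted p = 0.147, limma), but its FPKM was only 0.0611 to 0.236. At such levels the added 1 shrinks differences, so that scale could not test the call. Of the exonic bases of Grin2d, 9.66% are shared with an antisense gene. Grin3a, which encodes the glycine-binding GluN3A, was at 1.17 and 0.745 CPM in DMSO and 1.14 and 1.18 CPM in GDC0449 (log2 difference 0.25, SE 0.38, adjusted p = 0.651).

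GABA-A receptor transcripts came almost wholly from 2 neighbouring genes. Gabra4 (chr5:71569749-71658308, minus strand) encodes the alpha 4 subunit, which is known from receptors outside synapses. It had 596 and 507 reads in DMSO and 691 and 691 in GDC0449, or 30.3 and 31.5 against 32.8 and 32.7 CPM. The treated libraries were above the controls by little, and the log2 difference of 0.09 (SE 0.09, adjusted p = 0.500, edgeR) missed the threshold. Gabrb1 (chr5:71658113-72149037, plus strand; ENSMUSG00000029212) encodes the beta 1 subunit. It had 96 and 104 reads in DMSO and 68 and 83 in GDC0449, or 4.89 and 6.46 against 3.23 and 3.93 CPM. Both treated libraries were below both controls, at means of 5.67 ± 1.11 and 3.58 ± 0.500 CPM (SD, n = 2). The log2 fold change was -0.65 (SE 0.20, 1.57-fold lower, adjusted p = 0.00989). The Gabrb1 call was lost with no filter on low counts (adjusted p = 0.0810), with DESeq2 (0.117) and without DMSO replicate 1 (0.0841), DMSO replicate 2 (0.218) or GDC0449 replicate 1 (0.111). On log2(FPKM + 1) its difference was -0.08 (adjusted p = 0.493, limma). That scale could not test the call: at an FPKM of 0.203 to 0.358, the added 1 keeps even a complete loss under the fold threshold.

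Gabra4 and Gabrb1 lie head to head on opposite strands, and their annotated spans overlap by 196 bases. The row Gabrg1, Gabra2, Gabra4 and Gabrb1 spans 1398 kb of chromosome 5. Its other 2 genes, for the gamma 1 and alpha 2 subunits, had 0 and 2 reads. Per kilobase, Gabra4 was 14.1 and 11.1 times Gabrb1 in DMSO and 23.1 and 18.9 times in GDC0449, and it made up 93.0% and 91.7%, then 95.6% and 94.9% of the summed GABA-A level. From the deposited FPKM the groups overlapped, with ratios of 13.0 and 16.8 in DMSO and 16.5 and 25.2 in GDC0449 and Gabra4 shares of 92.5% and 94.4%, then 94.1% and 96.1%. Of the 3 gamma and delta subunit genes listed, Gabrd, the delta subunit gene, had 2 reads, and Gabrg1 and Gabrg3 had 0. Gabra6, the alpha subunit gene that marks mature granule neurons, had 0 reads in both groups.

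GABA-B receptors need both partners, but only the ligand-binding one was abundant. Gabbr1 (chr17:37045966-37075067, plus strand; promoter above) had 1558 and 1283 reads in DMSO and 2249 and 2176 in GDC0449, or 79.3 and 79.7 against 107 and 103 CPM. Both treated libraries lay above the controls, with a log2 fold change of 0.40 (SE 0.07, 1.32-fold, adjusted p = 5.17e-06, edgeR), under the fold threshold. The deposited FPKM of Gabbr1 did not show this difference: it was 8.96 and 8.85 in DMSO and 9.10 and 8.87 in GDC0449, with a log2(FPKM + 1) difference of 0.01 (adjusted p = 0.933, limma). Gabbr2, the partner that carries the receptor to the cell surface and couples it to G proteins, had 0 and 2 reads in DMSO and 2 and 1 in GDC0449, 5 in all against 7266 of Gabbr1.

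The metabotropic and delta-type receptors were at trace level and none was tested. Grm4, a presynaptic receptor of granule neurons, was the highest, with 6 and 4 reads in DMSO and 6 and 8 in GDC0449. Grm2 had 2 to 3 reads in each library, and Grid1, a delta-type receptor of synapse formation, had 1 to 3.

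Genes that work with these receptors were followed in 7 lists holding 66 genes, of which 52 were tested, 11 called higher, 3 called lower and 7 at 0 reads. Over all tested genes 12.4% were called, 8.62% higher and 3.80% lower. The median log2 fold change of the tested partner genes was 0.20, against 0.01 over all tested genes. Of 14 genes listed as AMPA and kainate auxiliary subunits, which set gating and delivery of the channels, 11 were tested, 5 called higher and 2 lower. These include Cacng4 and Cnih3, higher, and Cacng3, lower, whose calls were lost in 3, 6 and 3 alternatives. Cnih3 had 7 and 12 reads in DMSO and 22 and 33 in GDC0449, and Cacng3 11 and 20, then 4 and 3. Gsg1l, a claudin-like AMPA receptor auxiliary subunit, was the most abundant called one in CPM, at 112 and 101 in DMSO and 71.1 and 64.5 in GDC0449. It fell by 0.66 on the log2 scale (adjusted p = 1.52e-10, edgeR), and by 0.58, under the fold threshold, without DMSO replicate 1. Cnih2, a cornichon that slows AMPA receptor closing, rose by 0.67 (adjusted p = 3.84e-05), from 9.00 and 10.5 CPM to 14.8 and 16.5 CPM. Shisa7 and Shisa9, Shisa proteins of the same list, rose by 1.77 and 2.04 on the log2 scale from levels below 1 CPM (adjusted p = 4.53e-05 and 0.00012, edgeR). The calls of Cnih2, Shisa7 and Shisa9 were lost without either DMSO library, with adjusted p of 0.0539 and 0.0795, 0.124 and 0.146, and 0.0614 and 0.127 in that order. On log2(FPKM + 1) the differences of Cnih2, Shisa7 and Shisa9 were 0.58, 0.30 and 0.31, all under the fold threshold. For Shisa7 and Shisa9 that scale could not test the call. Their FPKM was 0.0764 to 0.512 and 0.024 to 0.354, where the added 1 shrinks differences.

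For the transmitters themselves, some genes of glutamate handling and of GABA handling were called, and the GABA-making genes were without reads. Of 9 genes of glutamate loading, uptake and conversion 7 were tested and 3 called higher, where 8.62% of all tested genes were called higher. Slc17a7, the vesicular glutamate transporter of mature granule neurons, was at 24.4 and 24.0 CPM in DMSO and 48.0 and 45.0 CPM in GDC0449, a rise of 0.94 on the log2 scale (SE 0.09, adjusted p = 1.77e-12, edgeR). Slc17a6, the second vesicular transporter, rose by 0.77 (adjusted p = 4.53e-05), a call lost without DMSO replicate 1 (0.0586) or 2 (0.0960). The glutamate uptake carrier Slc1a2 was also called, with a log2 fold change of 1.18. Of 8 genes of GABA metabolism 3 were tested, and of these only Abat, the enzyme that breaks GABA down, was called, also higher. Abat was at 21.8 and 19.7 CPM in DMSO and 35.0 and 33.0 CPM in GDC0449 (log2 fold change 0.71, adjusted p = 4.79e-08, edgeR). Gad1, Gad2 and Slc32a1, which make GABA and load it into vesicles, had 0 reads.

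Of 4 cation-chloride cotransporter genes, which set whether GABA-A channels excite or inhibit, 1 was called in each direction. Slc12a5 encodes KCC2, the chloride exporter of mature neurons, and rose from 9.93 and 8.13 CPM to 14.3 and 14.0 CPM (log2 fold change 0.64, adjusted p = 0.000129, edgeR). Slc12a2 encodes the importer NKCC1 and fell from 99.8 and 109 CPM to 68.9 and 70.3 CPM (log2 fold change -0.59, adjusted p = 1.90e-09). Slc12a2 lay at the fold threshold and was under it in 7 alternatives: upper-quartile scaling (-0.55), a filter at 5 CPM (-0.56), limma-voom (-0.58), the replicate block (-0.58), without DMSO replicate 2 (-0.53) or GDC0449 replicate 1 (-0.57), and on log2(FPKM + 1) (-0.48). The Slc12a5 call was lost without DMSO replicate 2 (adjusted p = 0.0721) and on log2(FPKM + 1) (0.33, adjusted p = 0.0959).

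Scaffold and anchoring genes were mostly without a call, as were most genes: 12.4% of all tested genes were called. The counts of these lists were not tested against that share. None of 9 genes that anchor or assemble GABA-A receptors was called by edgeR with TMM scaling and the default filter. Without the fold threshold 5 of the 9 passed the adjusted p, 2 higher and 3 lower, where 35.9% of all genes passed. An unadjusted p under 0.05 was found for 6, and its share over all genes was not computed. Nlgn2, the adhesion molecule of inhibitory synapses, was at 98.7 and 81.9 CPM, then 142 and 128 CPM (log2 fold change 0.58, adjusted p = 5.91e-09, 1.50-fold and just under the threshold). It was over the threshold in 5 alternatives: upper-quartile scaling (0.61), a filter at 5 CPM (0.61), the replicate block (0.59), and without DMSO replicate 1 (0.72) or GDC0449 replicate 2 (0.65). Clptm1, which holds GABA-A receptors back in the cell, had a log2 fold change of -0.37 (adjusted p = 2.08e-05). Of 18 excitatory scaffold genes 16 were tested and 1 was called, Dlgap1, with 83 reads in all (1.05, adjusted p = 0.0390, edgeR). Its call was lost with no filter (adjusted p = 0.144), with DESeq2 (0.305) and without DMSO replicate 1 (0.350), DMSO replicate 2 (0.136) or GDC0449 replicate 1 (0.384), and the deposited FPKM put it the other way (-0.12). Of 4 GABA-B auxiliary genes 2 were tested and neither was called, Kctd12b at a log2 fold change of 0.75 (adjusted p = 0.265) and Kctd12, which shares 64.2% of its exonic bases with other genes, at 0.27 (adjusted p = 0.472; -0.24 without DMSO replicate 1).

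**Figure D4:**
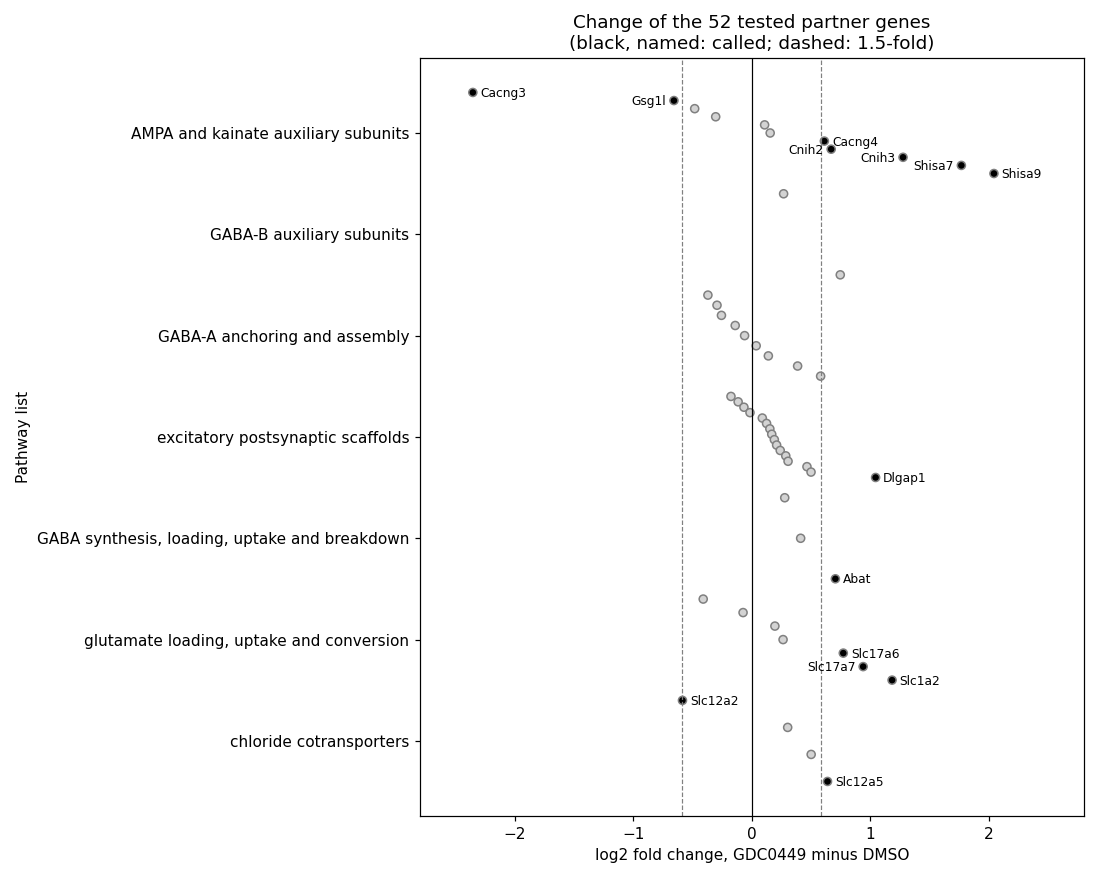
log2 fold change of GDC0449 against DMSO (x axis) for the 52 tested partner genes, by list (y axis); black named points passed the adjusted p and the 1.5-fold threshold (dashed lines). Called genes are 11 higher and 3 lower, 7 of them from the list of AMPA and kainate auxiliary subunits.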

How the data were processed

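RNA was sequenced from 2 DMSO and 2 GDC0449 samples. Per the submitters' processing notes, reads were trimmed with Trim Galore, mapped to mm10 with HISAT2 and counted per gene with HTSeq 0.11.1, and the authors' own test used DESeq2 1.26.0. For the strand setting and annotation release, the sources used here give no value, so genes overlapping on opposite strands are uncertain. The deposited counts were used as they are. The deposited FPKM values, which the authors computed from reads, gene length and depth, served as an alternative; 546 genes have 0 counts but an FPKM of at least 1 in all libraries, so the 2 units do not rest on the same read assignment. The table's 6 entries without a gene name were dropped; reads in no gene were 12.3% to 14.4% of each library, ambiguous reads 4.73% to 4.91% and multiply aligned reads 10.4% to 10.7%. Coordinates and exon lengths were taken from GENCODE M21 (55480 of 55573 identifiers matched).

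Counts of all genes entered edgeR 4.0.16 under R 4.3.3 (scaling by TMM, default expression filter, quasi-likelihood test, group as the only term, two-sided), with Benjamini-Hochberg adjustment over 15472 genes. A call needs an adjusted p under 0.05 and more than 1.5-fold change. The biological coefficient of variation was 4.82%. Replicates differed by more than sampling noise (chi-square per gene 4.11 in DMSO and 3.41 in GDC0449). The scripts were tested on simulated counts. Levels between genes are CPM per kilobase of merged exons. Floors cover counting error only. Members, lists and tests were chosen with earlier results of these data known. Named genes are every called member and the highest member of each receptor, then up to 4 called genes of each partner list. Where none was called, 2 tested genes were named. Cacng3, Cacng4 and Cnih3 were added for their lost calls. Gria4, Grik2, Grik4, Grin1 and Grin3a and the members at low reads complete the account of the members. Alternatives were other scaling, filters, DESeq2 1.42.0, limma-voom, robust dispersion, a replicate block, each library left out, limma 3.58.1 on log2(FPKM + 1), other fold thresholds, and other lengths for the shares.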

Additional observations from a re-analysis of the deposited data

How the results depend on the processing

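Gria3 was called in each alternative. It passed the filter at 5 CPM in 2 libraries through GDC0449 alone, as it had 3.97 and 3.29 CPM in DMSO. Receptor calls fell from 3 to 1 with a filter at 5 CPM (which left Grin2d and Gabrb1 untested), with DESeq2 and on log2(FPKM + 1), ranged from 1 to 3 with 1 library left out (1 without either DMSO library) and numbered 8 without a fold threshold. Over all genes these settings gave 1165, 1224, 840, 852 to 1711 and 5557 calls, and 955 at 2-fold. Partner gene calls, 14 in the main test, were 9 at 5 CPM, 5 on log2(FPKM + 1), 4 to 14 with 1 library left out (7 and 4 without DMSO replicates 1 and 2), 30 without a fold threshold and 6 at 2-fold. A lone library was assumed to vary like the pair of the other group. Grin3a ranged from -0.020 to 0.63 with 1 library left out, turning sign without DMSO replicate 2, Kctd12 ranged from -0.24, without DMSO replicate 1, to 0.92, and Dlgap1 turned to -0.12 on log2(FPKM + 1); the causes were not tested. Of 152 alternatives over tested members, 139 kept direction and side of the threshold, but 9 of the 12 tested members had no call to lose. A call was lost in 11 alternatives, 6 of Gabrb1 and 5 of Grin2d. For both genes log2(FPKM + 1) is among these, and at their low FPKM the added 1 kept the change under the fold threshold. The fall to 1 receptor call on that scale was thus set by the scale. The same limit held there for the partner genes Cacng3, Cnih3, Shisa7 and Shisa9.

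Mean shares moved with the scale: from FPKM, which differs in read assignment as well as length, Gabra4 was 93.4% in DMSO, Gria2 84.5% and 72.4% in DMSO and GDC0449, and Grik5 90.9% in DMSO; from the longest transcript, Gabra4 was 94.6% and 96.7%, Gria2 81.0% and 67.4%, and Grin2c 96.5% and 96.3%.

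The labels' replicate numbers were not shown to pair samples (correlation of same-numbered deviations 0.0351, 2 pairs); with them as a replicate block, 3 receptor genes, 14 partner genes and 2000 genes in all were called. The 14 partner genes differ from the main ones by Nlgn2, gained, and Slc12a2, lost.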
